A study of Mus musculus with 11 samples.

Results

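The 10 genes described here carry out the MHC class I pathway of antigen presentation, and they were chosen by name: the heavy chains H2-K1 and H2-D1, the light chain B2m, the peptide transporter genes Tap1 and Tap2, the loading chaperone Tapbp, the immunoproteasome subunits Psmb8, Psmb9 and Psmb10, and the transactivator Nlrc5. All 10 symbols were matched to gene identifiers through the GENCODE annotation, out of 53801 genes listed in each table. RNA was sequenced from 11 cultures of primary NSCs (neural stem cells) taken from the hippocampus of mouse embryos. Cultures received 1 µM 4HBP or its EtOH vehicle (control) for 7 days, either in proliferation medium or in differentiation medium. Proliferation medium contains the growth factors EGF and bFGF, and the study's methods do not give the composition of differentiation medium. Proliferation medium had 3 libraries with 4HBP and 3 controls, and differentiation medium had 3 with 4HBP and 2 controls. The deposited labels spell the compound out as 4-Hydroxybenzoic acid, the study's methods give 4-hydroxybenzophenone, and the short name 4HBP is used by both. The cultures are mixtures of NSCs and their progeny outside the embryo, and the labels do not say whether replicates were separate isolations, so p-values measure only the spread between these libraries, which may be technical.

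MHC class I molecules show peptides from inside the cell to cytotoxic T cells. Proteins are cut by the proteasome, whose standard catalytic subunits Psmb5, Psmb6 and Psmb7 can be replaced by the inducible subunits Psmb8, Psmb9 and Psmb10. The peptides are pumped into the endoplasmic reticulum by the Tap1 and Tap2 dimer and are loaded, with the help of tapasin (Tapbp), onto a heavy chain paired with beta-2-microglobulin (B2m). Neural stem cells and most other brain cells hold little class I at rest, and interferons and NF-kappaB signalling are known inducers in many cell types. Nlrc5 acts on class I promoters through the factors that bind their X and Y boxes.

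On the GRCm38 build, 7 of the 10 genes lie on chromosome 17. Psmb9, Tap1, Psmb8 and Tap2 form a block of 34.3 kb at chr17:34181987-34216321, in which the annotated spans of the divergent genes Psmb9 and Tap1 overlap by 212 bases. H2-K1 (chr17:33996017-34000347, minus strand) and H2-D1 (chr17:35262730-35267499, plus strand) are 1262 kb apart. B2m is on chromosome 2 (122147686-122153083), and Psmb10 and Nlrc5 are on chromosome 8. RefSeq promoters of the same build (GRCm38.p6) were matched for 8 of the 10 genes, all but Tap2 and Nlrc5. The promoters of H2-K1 and B2m are shown because they belong to the partners of one molecule, whose RNA differed by unlike amounts between the media. A short stretch of H2-D1 is shown because its NF-kappaB-like letters can be set beside those of H2-K1. All are written 5′ to 3′ on the strand of the gene, and the capitals mark letters that match 1 of the 5 motifs searched. The H2-K1 stretch is chr17:34000348-34000547, the B2m stretch chr2:122147487-122147685, the H2-D1 stretch chr17:35262913-35262942 and the stretch between the RefSeq starts of Tap1 and Psmb9, on the strand of Tap1, chr17:34187458-34187487. RefSeq starts differ from those of the GENCODE spans given above, so that this last stretch lies within the GENCODE span of Psmb9 and the H2-D1 stretch within that of H2-D1.
H2-K1: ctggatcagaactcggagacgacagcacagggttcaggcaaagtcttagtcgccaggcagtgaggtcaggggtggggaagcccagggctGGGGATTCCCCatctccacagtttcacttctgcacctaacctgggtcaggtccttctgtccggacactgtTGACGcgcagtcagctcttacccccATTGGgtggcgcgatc
B2m: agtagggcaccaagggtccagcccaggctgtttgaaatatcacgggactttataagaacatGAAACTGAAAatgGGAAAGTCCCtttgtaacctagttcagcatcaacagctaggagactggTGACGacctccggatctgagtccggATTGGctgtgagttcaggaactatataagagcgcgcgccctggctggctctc
H2-D1: gcccagggctGGGGATTCCCCatctcctca
Tap1 and Psmb9: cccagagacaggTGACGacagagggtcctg

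The motifs were searched on both strands of the 250 bases before each RefSeq start. A kappaB motif (GGGA, any base, T, any 2 bases, CC) was in 3 of the 8 promoters, those of H2-K1, H2-D1 and B2m, against 3.44% of all 32851 promoters. The letters of an interferon-stimulated response element (GAAA, any 2 bases, GAAA, in 2.98% of all promoters) were found in B2m. The gamma-activated site (TTC, any 3 bases, GAA, in 7.02% of all) was found in Psmb8. The Y box letters CCAAT were in 6 of the 8 (33.8% of all), where Tap1 and Psmb9 again share 1 site that is counted for both genes. The core TGACG of the X2 box was in 5 of the 8 (17.8% of all), namely in H2-K1, H2-D1, B2m and, as 1 site counted for both genes, in the region that Tap1 and Psmb9 share. The promoters of the heavy chains were alike in sequence. Set at their kappaB letters without gaps, 166 of 190 bases (87.4%) were identical. None of the motifs searched overlapped another in the stretches shown, other than the kappaB letters of the heavy chains, which match on both strands. Such matches are letters in a window and do not say that a factor binds there. The search took these exact letters only, so a promoter without a match may still hold a variant of the motif.

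In every group, the light chain had the most RNA of the 10 genes per length. Levels between genes are given in TPM, which is scaled by gene length. In control cultures in proliferation medium, B2m had 178 ± 8.52 TPM (SD, n = 3), ahead of Tapbp at 36.1 ± 1.98 TPM, H2-K1 at 20.2 ± 0.749 TPM, H2-D1 at 16.7 ± 0.928 TPM and Psmb10 at 16.5 ± 2.17 TPM. The libraries of H2-D1 and Psmb10 overlapped in this order, and those of the genes above them did not. The transporter genes were lower, with 9.69 ± 0.529 TPM for Tap2 and 5.88 ± 0.52 TPM for Tap1. At the bottom were Psmb8 (2.55 ± 0.09 TPM), Nlrc5 (2.08 ± 0.986 TPM) and Psmb9 (1.21 ± 0.209 TPM). Nlrc5 overlapped both of its neighbours there. In differentiation controls the upper ranks were B2m (101 ± 6.64 TPM, n = 2), Tapbp (35.9 ± 4.12 TPM), Psmb10 (24 ± 0.233 TPM), H2-K1 (21.6 ± 0.905 TPM) and H2-D1 (21.4 ± 1.58 TPM), with the heavy chains overlapping, and Tap1 (9.48 ± 1.23 TPM) stood above Tap2. All 10 genes were thus detected in all 11 libraries, whose totals were between 20822921 and 23438463 expected counts, although Psmb9 rested on 7 to 30 expected counts and Psmb8 on 20 to 114. The 3 counts taken as the smallest detectable amount equal 0.128 to 0.144 CPM (counts scaled to the size of the library), a limit that covers counting error only.

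**Figure D1:**
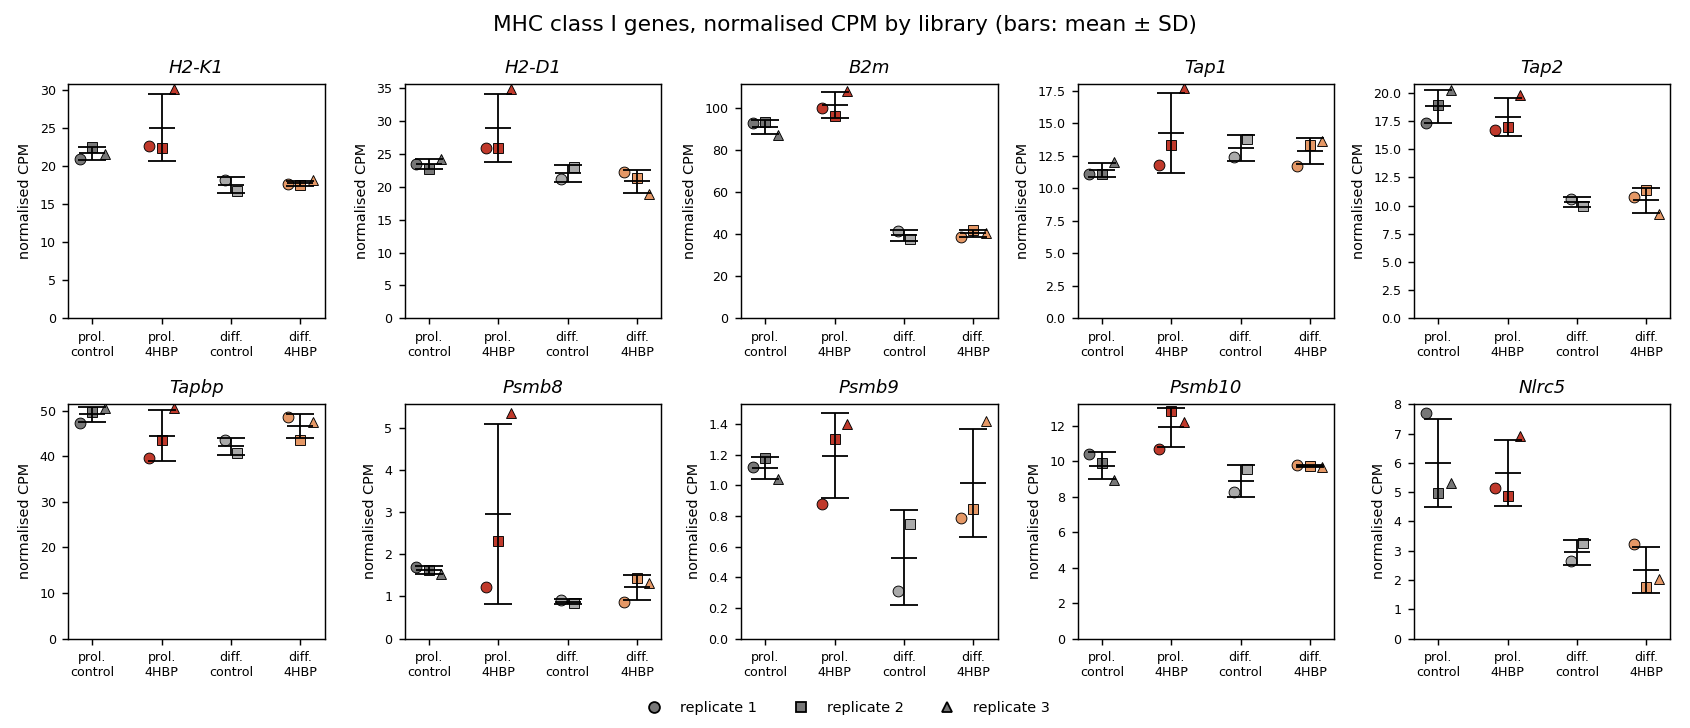
Normalised CPM of the 10 genes in each of the 11 libraries (y axes, each starting at 0), by medium and treatment (x axes). Symbols are replicates, bars give the mean ± SD. H2-K1, B2m, Tap2 and Nlrc5 sit lower in all 5 differentiation libraries than in all 6 proliferation libraries. Replicate 3 with 4HBP in proliferation medium is the highest of its group for 9 of the 10 genes.

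The first question was whether 4HBP changed these genes in dividing cultures. No member passed the test (edgeR, 0 of 10 at an adjusted p under 0.05), whereas 7.43% of the 14449 genes tested did. At an unadjusted p under 0.05 there were 2 members, H2-D1 and Psmb10 (25.1% of all genes), and the other fits tried, DESeq2 and limma among them, also called 0. By the thresholds of the study's methods, which pair limma without adjustment and a least fold change, 0 of 10 passed in either medium, beside 2.73% of genes in proliferation and 0.257% in differentiation medium. Log2 fold changes were above 0 for 7 of the 10 genes, with a median of 0.18 against 0 over all genes tested (50.2% of them above 0). The 4HBP and control libraries did not overlap for H2-D1, B2m and Psmb10, each higher with 4HBP, so that 3 of 10 were apart in this direction beside 16.1% of all genes. In bulk RNA, fewer cells of a type and less RNA per cell cannot be told apart.

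The heavy chain H2-D1 had 25.9, 25.9 and 34.8 normalised CPM (CPM further scaled by the TMM factors of edgeR) in 4HBP replicates 1, 2 and 3 and 23.4, 22.6 and 24.2 in the controls. Its fold change was 1.23 (log2 0.30 ± 0.13 SE, edgeR adjusted p = 0.179). Every treated library lay above every control, and the third treated library stood well above the rest. H2-K1, the other classical heavy chain, had 22.6, 22.4 and 30.1 CPM with 4HBP and 20.9, 22.5 and 21.5 in controls. The log2 fold change of 0.21 ± 0.13 (adjusted p = 0.348 in edgeR) again came with 1 treated library above all others and 2 among or beside the controls. Reads of the heavy chains can be exchanged between near-identical copies, since 9.63% of the 50-base words of the H2-K1 transcripts and 12.8% of those of H2-D1 occur in transcripts of another gene. Summed, both heavy chains gave a log2 fold change of 0.26 (edgeR adjusted p = 0.203). B2m, the light chain common to all class I molecules, had 100, 96.3 and 108 CPM with 4HBP and 92.8, 93.2 and 87.1 CPM in controls. The groups did not overlap, the difference was small (1.12-fold, 95% interval 0.997 to 1.25), and the test was not passed (edgeR adjusted p = 0.213).

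Of the transporter genes, Tap1 had 11.8, 13.3 and 17.7 CPM with 4HBP and 11.1, 11.1 and 12 in controls, a log2 fold change of 0.33 ± 0.16 (edgeR adjusted p = 0.234). Tap2, the other subunit, did not share this pattern of values, with 16.7, 17 and 19.8 CPM against 17.3, 18.9 and 20.2 and a log2 fold change of -0.07 ± 0.11 (adjusted p = 0.745). For Tapbp, which bridges the transporter and the heavy chain, 2 of the treated libraries were below all controls (39.6, 43.5 and 50.5 CPM against 47.2, 49.8 and 50.5, log2 fold change -0.14 ± 0.10, edgeR adjusted p = 0.407).

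Among the immunoproteasome genes, Psmb8 and Psmb9 had the largest standard errors of the 10 genes in proliferation medium. Psmb8 had 25, 48 and 114 expected counts in 4HBP replicates 1, 2 and 3 and 35, 33 and 31 in the controls. The treated libraries thus spanned values from below to far above the controls. Its log2 fold change of 0.87 ± 0.46 (edgeR adjusted p = 0.282) fell to 0.13 without 4HBP replicate 3. Psmb9 had 18, 27 and 30 expected counts against 23, 24 and 21, with a log2 fold change of 0.10 ± 0.30, which was -0.02 without that replicate. Psmb10 was steadier, with 10.7, 12.8 and 12.2 CPM against 10.4, 9.91 and 8.92, a 1.22-fold difference (edgeR adjusted p = 0.191) in which the groups did not overlap. Nlrc5, the transactivator, had 5.14, 4.88 and 6.93 CPM with 4HBP and 7.71, 4.98 and 5.30 in controls (log2 fold change -0.08 ± 0.22, adjusted p = 0.853). Its highest value was in a control, and without that library the log2 fold change was 0.14. The plot of effects shows that the 95% intervals of Psmb8 and Psmb9 are the widest. At these counts, a change in them had to be larger than in the other genes to be told from 0.

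**Figure D2:**
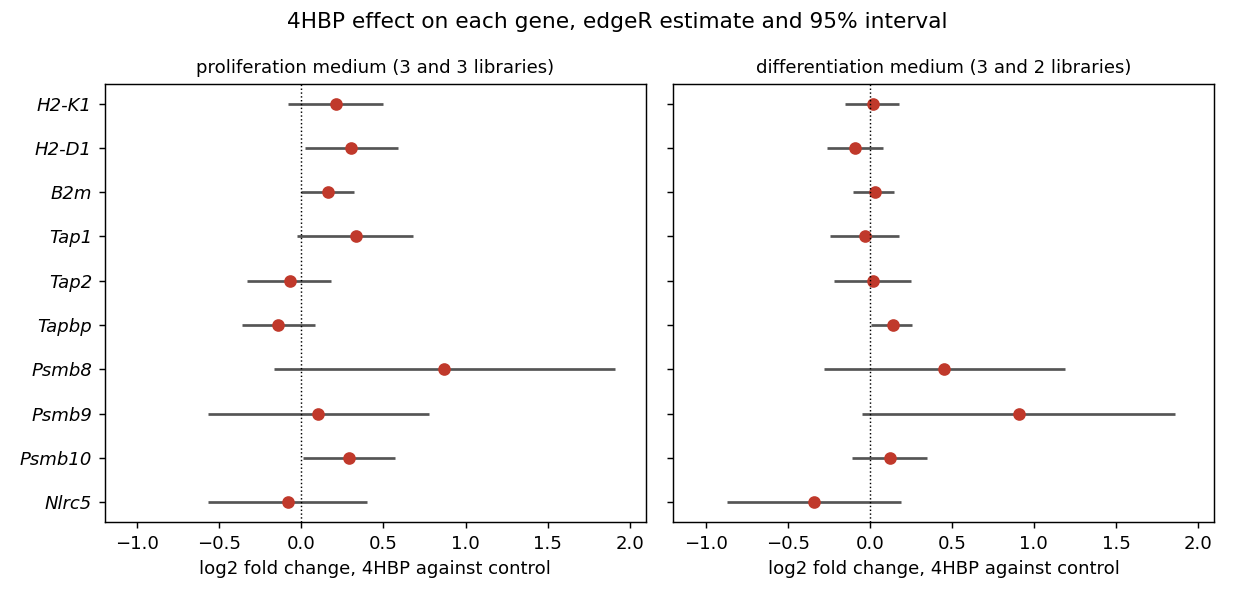
Log2 fold change of 4HBP against control for each gene (x axis, edgeR) with its 95% interval (lines), in proliferation medium (left) and differentiation medium (right). The intervals of H2-D1 and Psmb10 on the left and of Tapbp on the right lie just above 0 before adjustment for the number of genes, and the intervals of Psmb8 and Psmb9 are the widest.

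One library carried much of the shift. In 4HBP replicate 3 in proliferation medium, 10 of 10 members were above the control mean and 8 were above the highest control (36.1% of all genes tested were above the highest control in that library). The median difference of the members from the control mean was 0.33 on the log2 scale in this library, and the largest was 1.72, for Psmb8. In replicate 2, 7 of 10 were above the control mean, with a median of 0.11. There, 6 were above the highest control (32.7% of all genes) and 3 below the lowest. In replicate 1, 5 of 10 were above the control mean, with a median of -0.06, and 4 were above the highest control (31.4% of all genes) and 4 below the lowest. The replicates therefore did not share a direction for the members as a whole. After the mean of each medium was taken off, Psmb8, Tap1 and H2-K1 followed the mean of the other 9 genes most closely across the 11 libraries (Pearson r of 0.881, 0.847 and 0.822), and Nlrc5 (0.0436) and Tap2 (0.17) the least. These r values are descriptions over libraries that share treatments, and the mean of the 10 genes deviated by 0.35 in 4HBP replicate 3 and by -0.14 to 0.05 in the 10 other libraries.

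**Figure D3:**
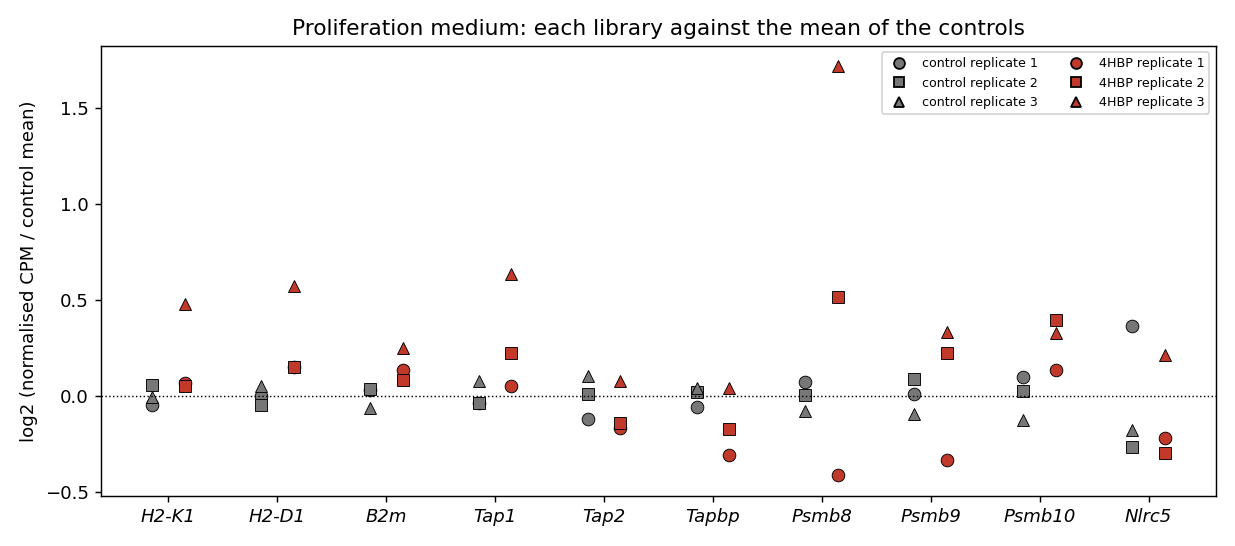
Log2 ratio of each proliferation library to the mean of the 3 controls (y axis) for the 10 genes (x axis). Grey symbols are controls, red symbols 4HBP. Replicate 3 with 4HBP (red triangles) is above 0 for 10 of 10 genes and reaches 1.72 for Psmb8, whereas replicate 1 (red circles) is below 0 for 5 of 10.

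In differentiation medium, too, no member passed the test (edgeR, 0 of 10, beside 2.56% of the 15484 genes tested). At an unadjusted p under 0.05 there was 1, Tapbp (15.9% of all genes), and all other fits tried called 0. The median log2 fold change of the 10 genes was 0.02, against 0 over all genes. H2-K1 had 17.6, 17.5 and 18.1 CPM with 4HBP and 18.2 and 16.7 in controls, and B2m had 38.8, 41.8 and 40.7 against 41.4 and 37.7. For both, the control libraries enclosed most or all of the treated ones, and the 95% interval of the fold change was 0.904 to 1.13 for H2-K1 and 0.934 to 1.11 for B2m, in edgeR. H2-D1 (22.2, 21.3 and 18.8 CPM against 21.1 and 22.9) had an interval of 0.834 to 1.06.

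Tapbp had 48.6, 43.6 and 47.5 CPM with 4HBP and 43.5 and 40.8 in controls, 1.10-fold in edgeR (adjusted p = 0.25). The groups were apart for Tapbp, Psmb9 and Psmb10, again 3 of 10 in the higher direction, beside 17.4% of all genes. For Psmb9 this rested on 18, 20 and 30 expected counts with 4HBP and 7 and 18 in controls, with a log2 fold change of 0.91 ± 0.45 (edgeR adjusted p = 0.342). The low control decided its size. Without control replicate 1 the log2 fold change was 0.42, and without control replicate 2 it was 1.69. Tap1 (-0.03 ± 0.10), Tap2 (0.02 ± 0.11), Psmb10 (0.12 ± 0.11), Psmb8 (0.45 ± 0.35) and Nlrc5 (-0.34 ± 0.25) also had log2 fold changes that did not pass.

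The difference between the 4HBP effects in the media was tested as an interaction, and 0 of 10 members passed in edgeR (4.49% of 15920 genes did), with 2, H2-D1 and Tapbp, at an unadjusted p under 0.05 (19.9% of all genes). Tapbp had an effect 0.29 lower on the log2 scale in proliferation than in differentiation medium (adjusted p = 0.225). It passed in voom with quality weights (adjusted p = 0.0471) and without 4HBP replicate 3 of proliferation medium (adjusted p = 0.0318). Neither H2-D1 (0.38 higher in proliferation medium, adjusted p = 0.227) nor any other member passed in any fit tried.

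The next question was how the members differed between the media. In controls, 5 of the 10 genes fell from proliferation to differentiation medium and 0 rose (edgeR, adjusted p under 0.05), where 30.6% of the 15920 genes tested fell and 61.4% changed in either direction. Under 4HBP, 7 of 10 fell and 0 rose, where 33.8% of all genes fell and 67.2% changed in either direction. The median log2 fold change of the members was -0.59 in controls and -0.48 under 4HBP, against 0.03 and 0.01 over all genes. The media did not overlap for 8 members in controls, 7 lower and 1 (Tap1) higher in differentiation medium, beside 37% and 39.3% of all genes, and for 6 under 4HBP, all lower, beside 35.5%. At an unadjusted p under 0.05, 0 members were higher in either comparison in edgeR, beside 32.8% of all genes in controls and 34.8% under 4HBP. The light chain had the smallest p of the 10 genes in both comparisons. B2m went from 92.8, 93.2 and 87.1 CPM to 41.4 and 37.7 CPM in controls (0.434-fold, 95% interval 0.388 to 0.486, adjusted p = 3.0e-08), and to 0.398-fold under 4HBP (adjusted p = 2.3e-09). The media did not overlap for B2m in any pair of libraries.

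Tap2 fell to 0.55-fold in controls (17.3, 18.9 and 20.2 CPM to 10.6 and 10, edgeR adjusted p = 4.4e-05) and to 0.588-fold under 4HBP (adjusted p = 3.1e-05). B2m and Tap2 fell in every alternative that was run, the deposited TPM values included, where the log2 fold changes on log2(TPM+1) were -0.81 and -0.43 in controls (limma, adjusted p = 1.3e-04 and 0.0214). On that scale the median of all genes was itself higher in differentiation medium, by 0.28 more than in edgeR in controls and by 0.25 more under 4HBP, and 79.3% and 74.4% of the calls were higher, against 50.2% and 49.7% in edgeR. Differences in TPM between the media are therefore also given relative to that median, which puts B2m at -1.12 and Tap2 at -0.73 in controls. The other transporter gene, Tap1, did not pass in counts. It had 11.1, 11.1 and 12 CPM in proliferation and 12.4 and 13.8 in differentiation controls, groups that did not overlap, with a log2 fold change of 0.20 ± 0.15 (edgeR adjusted p = 0.279). On log2(TPM+1), Tap1 was higher in differentiation controls by 0.60 (limma, adjusted p = 0.0441), or by 0.30 relative to the median gene. Under 4HBP it was at -0.15 in edgeR and 0.18 on log2(TPM+1), the latter -0.07 relative to the median gene, and neither passed.

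The heavy chains moved less than the light chain. In counts, H2-K1 fell by 0.31 on the log2 scale in controls (edgeR adjusted p = 0.0395) and by 0.50 under 4HBP (adjusted p = 0.00107), whereas on log2(TPM+1) it was 0.10 higher in differentiation controls (limma, adjusted p = 0.669) and 0.13 lower under 4HBP (adjusted p = 0.458). Relative to the median gene these were -0.21 and -0.39, the direction seen in counts. H2-D1 had a log2 fold change of -0.09 in controls (edgeR adjusted p = 0.562) and fell by 0.47 under 4HBP (adjusted p = 0.00217), with 0.33 and -0.06 on log2(TPM+1), or 0.03 and -0.32 relative to the median gene. The sum of both heavy chains gave -0.19 in controls (edgeR adjusted p = 0.147) and -0.48 under 4HBP (adjusted p = 6.6e-04). In controls, H2-K1 alone of the heavy chains passed in counts, and this call and its direction were kept in 7 of 21 alternatives. It was lost when any 1 of the proliferation controls or of the differentiation libraries was left out (adjusted p of 0.0522 to 0.213).

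Nlrc5 fell to 0.492-fold in controls (edgeR adjusted p = 0.00603) and 0.416-fold under 4HBP (adjusted p = 5.8e-04) in counts, from 101 to 158 expected counts in the proliferation libraries to 42 to 78 in the differentiation libraries. Its effective length, the length RSEM divides by, varied between 2577 and 7400 bases among libraries, and on log2(TPM+1) the difference was -0.02 in controls and -0.67 under 4HBP, neither passing in limma (-0.33 and -0.92 relative to the median gene). Without differentiation control replicate 1 the control comparison had an adjusted p of 0.0603. Of the immunoproteasome genes, Psmb9 passed in controls (0.48-fold, edgeR adjusted p = 0.0488, log2 fold change -0.56 with an adjusted p of 0.349 without differentiation control replicate 1). That call was also lost without any 1 of the proliferation controls, proliferation 4HBP replicate 2 or differentiation 4HBP replicate 1 or 2. Counting changes of method too, it was kept in 6 of 20 alternatives. Psmb8 and Psmb10 passed under 4HBP (0.409-fold, adjusted p = 0.0165, and 0.819-fold, adjusted p = 0.0299, in edgeR). Without 4HBP replicate 3 of proliferation medium, the log2 fold change of Psmb8 went from -1.29 to -0.55 (adjusted p = 0.138) and Psmb10 had an adjusted p of 0.0534. Psmb8 also lost its call without differentiation 4HBP replicate 1 (adjusted p = 0.0671), and Psmb10 without proliferation 4HBP replicate 2 (adjusted p = 0.121) or any 1 of the differentiation 4HBP libraries (0.0659 to 0.0735). With changes of method counted too, the call and its direction were kept in 14 of 20 alternatives for Psmb8 and 9 of 20 for Psmb10. On log2(TPM+1), Psmb10 was 0.52 higher in differentiation controls (limma, adjusted p = 0.0158) and 0.22 higher relative to the median gene, against -0.13 in counts (edgeR adjusted p = 0.371). Tapbp did not pass in either comparison (log2 fold changes of -0.22 and 0.06, edgeR adjusted p = 0.0537 and 0.513). Some alternatives added calls in controls, where Tapbp was called lower in 5 of 20 and Psmb8 in 3 of 20.

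The balance between partners within a library does not depend on how libraries are scaled. These ratios were chosen after the values were seen and are given without a test. B2m per H2-K1 plus H2-D1, in TPM, was 4.03 to 5.03 in the 6 proliferation libraries and 2.21 to 2.57 in the 5 differentiation libraries, a 0.508-fold difference with no overlap. From expected counts the difference was 0.523-fold, again with no overlap. The ratio of Tap1 to Tap2 was 0.552 to 0.942 in proliferation and 0.98 to 1.63 in differentiation medium, a 1.86-fold difference with no overlap (1.80-fold from expected counts). By contrast, H2-D1 per H2-K1 overlapped between the media (0.759 to 0.93 and 0.826 to 1.07).

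Immunoproteasome RNA was a minor share beside the standard subunit that each one replaces. Psmb8 made up 2.32% to 10.8% of Psmb8 plus Psmb5 in proliferation medium and 1.04% to 2.37% in differentiation medium. The 10.8% was in 4HBP replicate 3, and the next library had 4.56%. For Psmb9 the share of Psmb9 plus Psmb6 was at most 0.884% in any library. Psmb10 held the largest share, 9.79% to 15.7% of Psmb10 plus Psmb7. Within proliferation medium it was 12.3%, 14.4% and 15.7% with 4HBP and 10.3%, 10.4% and 9.79% in controls, groups that did not overlap. Of the 5 other ratios and shares, the Tap1 to Tap2 ratio was also apart there and 4 overlapped. How often ratios of other gene pairs are apart in these libraries was not computed, so these counts have no share to be set beside. The Tap1 to Tap2 ratio was 0.672, 0.79 and 0.942 with 4HBP and 0.628, 0.644 and 0.552 in controls. These shares rest on RSEM effective lengths, which varied 1.44-fold for Psmb10 among libraries.

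**Figure D4:**
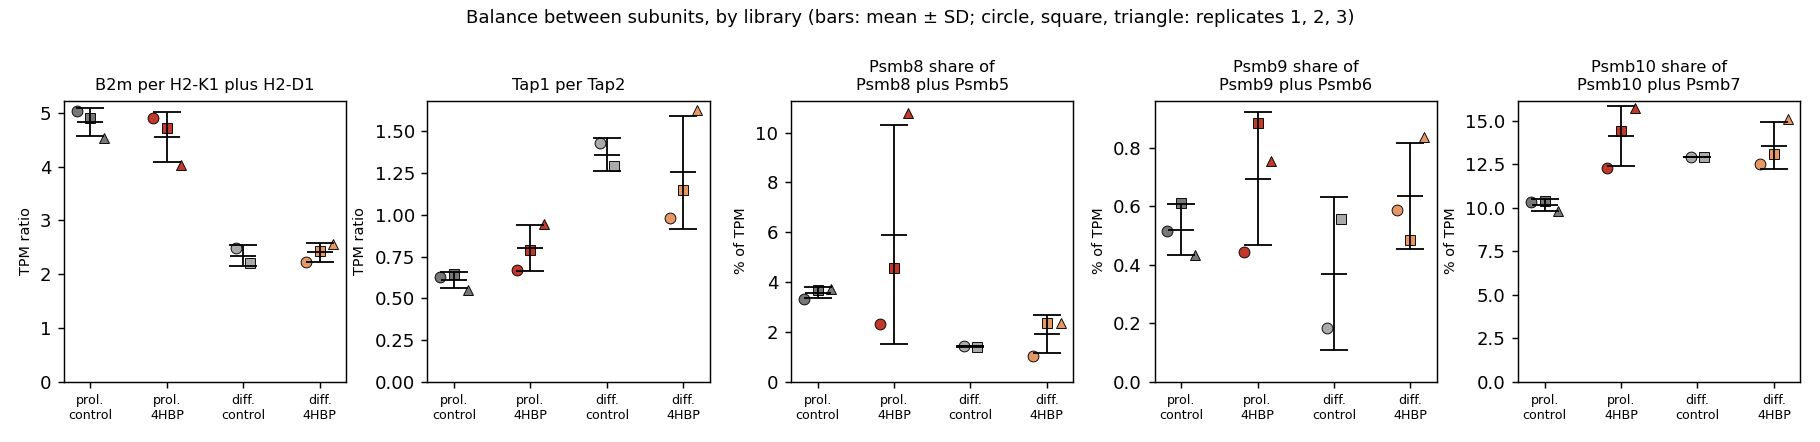
Ratios and shares between partner subunits from TPM (y axes, starting at 0) in each library, by medium and treatment (x axes), with the mean ± SD. B2m per heavy chain is 4.03 to 5.03 in proliferation and 2.21 to 2.57 in differentiation medium, and the Psmb8 share reaches 10.8% in 1 library.

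Genes upstream of class I were read from a list of 27 regulators. In proliferation medium with 4HBP, 3 rose and 0 fell (edgeR, adjusted p under 0.05), beside 3.74% higher among all genes tested. They were Ifngr2, a chain of the interferon gamma receptor (log2 fold change 0.73, adjusted p = 0.0118), and the NF-kappaB subunits Relb (0.88, adjusted p = 0.0196) and Nfkb2 (0.64, adjusted p = 0.03). Without proliferation control replicate 1 or 2, 0 of the 27 passed (Ifngr2 at adjusted p of 0.058 and 0.0663), and without 4HBP replicate 2 only Ifngr2 did (adjusted p = 0.0316). Relb had 201, 263 and 278 expected counts with 4HBP and 144, 106 and 144 in controls, so the rise was present in all 3 treated libraries. Irf1, an interferon-induced activator of class I promoters, had 174, 190 and 277 expected counts against 150, 123 and 136 and did not pass (0.61, edgeR adjusted p = 0.0727). It passed in DESeq2 (adjusted p = 0.0369), in edgeR without the filter (0.0337) and in the edgeR fit of all 11 libraries (0.0178), and not in the other fits. In those same fits Irf9 was called higher and Rfx5 lower. Rfx5 was also called lower in voom with quality weights, with the replicate block and without control replicate 3, and not in the others. Irf2 was called higher in the fit of all 11 libraries and in voom with quality weights, and Rela in the latter only. At an unadjusted p under 0.05 in edgeR there were 8 of 27, beside 25.1% of all genes. The median of the list was 0.10. In differentiation medium 0 of 27 passed in edgeR, with 3 at an unadjusted p under 0.05, against 15.9% of all genes. The 4HBP effect differed between the media for 1 of 27, Ifngr2 (interaction in edgeR, adjusted p = 0.0247), a share no larger than the 4.49% of all genes. From proliferation to differentiation medium, 11 of the 27 regulators fell and 3 rose in controls, beside 30.6% of all genes lower and 30.8% higher. Among those that fell were Rfx5 (0.448-fold, edgeR adjusted p = 9.2e-06) and Rfxank (0.53-fold, adjusted p = 4.2e-07), subunits of the X box factor, and the NF-kappaB subunit Rela (0.627-fold, adjusted p = 2.4e-06). Rfxap, also a subunit of the X box factor, did not pass (means of 12.9 and 12.7 normalised CPM in proliferation and differentiation controls). Nor did Nfya, Nfyb and Nfyc, of the Y box factor. Irf2, Ifngr1 and Nfkb1 rose.

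Of the 8 ligands listed, which include 5 of the interferon genes, 7 were at or near 0 counts. Ifna4, Ifnb1, Ifnl2, Ifnl3 and Il1b were at 0 counts in all 11 libraries, which allows up to 3 counts in each, Ifng had 1 count in 1 library, and Il6 also never exceeded 3 counts. Tnf had 10 to 23 expected counts in the 6 proliferation libraries and 0 in the 5 differentiation libraries. Among 25 interferon-stimulated genes outside the class I pathway, 20 were tested in proliferation medium and 1 rose with 4HBP, the chemokine gene Cxcl10 (log2 fold change 3.58, edgeR adjusted p = 0.0177), while 0 fell, close to the 3.74% of all genes that rose. It had 56, 56 and 251 expected counts against 8, 9 and 12, again with the highest value in replicate 3. Without proliferation control replicate 1 or 2 Cxcl10 did not pass (adjusted p = 0.0911 and 0.0916), nor did it in limma on log2 CPM or TPM (0.12 to 0.168), and without 4HBP replicate 3 it did (2.51, adjusted p = 0.00333). The median over the 20 tested genes was 0.45, and the summed level of the 25 was 164 to 287 CPM with 4HBP and 156 to 175 CPM in controls. In differentiation medium, 1 of 22 tested fell (1.3% of all genes did) and 0 rose, namely Ifit2 (log2 fold change -0.35, edgeR adjusted p = 0.0184), a call lost without 4HBP replicate 1 (adjusted p = 0.0576) or control replicate 1 (adjusted p = 0.274), in DESeq2 (0.0601), in limma on log2 CPM or TPM (0.302 to 0.434) and in the fit of all 11 libraries (1).

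Other genes of antigen presentation were read against the same shares of all genes. Of 9 class Ib genes, which encode nonclassical heavy chains, 4 were tested in proliferation medium and 0 passed (edgeR, 0 at an unadjusted p under 0.05). Of 7 genes for peptide loading and trimming, 0 passed in proliferation medium (7.43% of all genes did), with 3 at an unadjusted p under 0.05 (25.1% of all genes). Calr, the chaperone calreticulin of the loading complex, had 17067, 12036 and 8813 expected counts with 4HBP and 18658, 18606 and 20687 in controls (log2 fold change -0.64, edgeR adjusted p = 0.0961). It was called lower in edgeR in the fit of all 11 libraries (adjusted p = 0.0244), without the filter (0.0153) and without 4HBP replicate 1 (0.0138). Pdia3 was called lower in these fits and in DESeq2, and Erap1 higher in the fit of all 11 libraries. The other fits called 0 of the 7. In differentiation medium, 2 of the 7 rose (1.26% of all genes did), and 5 of 7 were apart in the higher direction, beside 17.4% of all genes. Calr (0.15, adjusted p = 0.0137) and Hspa5 (0.20, adjusted p = 0.00246), a chaperone of the endoplasmic reticulum, were the genes that passed in edgeR. The difference between the media did not pass for either (edgeR interaction, adjusted p = 0.112 and 0.294). Hspa5 passed whichever library was left out, and Calr only without 4HBP replicate 1 (adjusted p of 0.052 to 0.114 without another). Neither passed in limma on log2 CPM or TPM (adjusted p of 0.376 to 0.676 for Calr and 0.31 to 0.573 for Hspa5). Nor did they pass in the edgeR fit of all 11 libraries (adjusted p = 1 for both), which called 0 genes for 4HBP in this medium. Of the 7 standard proteasome and activator genes, 0 passed in either medium with 4HBP, with 1 at an unadjusted p under 0.05 in each (25.1% and 15.9% of all genes). Of the 7 class II genes, 3 were tested in proliferation and 2 in differentiation medium, with 0 calls in edgeR and, at an unadjusted p under 0.05, 0 and 1 (H2-Ab1).

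Markers of other cells were read beside these values. The 9 microglia and macrophage genes together had 5.03 to 6.85 CPM with 4HBP and 4.05 to 6.60 CPM in controls in proliferation medium, 2.56 to 3.75 CPM and 2.79 to 3.30 CPM in differentiation medium, and 4 of the 9 never exceeded 3 counts in any library. T and NK cell markers stayed at or under 3 counts for all 5 genes in all 11 libraries, and of the 5 endothelial genes, Cdh5 and Cldn5 were at 0 throughout. Flt1, also of that list, had 210 to 391 expected counts in proliferation and 20 to 47 in differentiation medium and fell between the media (log2 fold change -2.91 in controls, edgeR adjusted p = 1.0e-05). The summed level of the 5 endothelial genes was 10.3 to 19.1 CPM with 4HBP and 11.5 to 19.7 CPM in controls in proliferation medium, and 1.16 to 1.79 CPM and 2.08 to 2.13 CPM in differentiation medium. NSC markers were 6 of 6 lower in differentiation than in proliferation medium in controls, where 30.6% of all genes were lower and 30.8% higher (summed 4379 to 5260 CPM in proliferation and 1542 to 1558 CPM in differentiation medium). Of the 6 astrocyte markers, 4 were higher and 2 lower, of the 6 neuron markers 3 were higher and 1 lower, and of the 6 oligodendrocyte lineage markers 4 were higher and 0 lower (edgeR). With 4HBP in proliferation medium, 3 of 6 astrocyte markers fell, beside 3.69% of all genes (Gfap, Aqp4 and Gja1, median of the list -0.54, summed 3330 to 3878 CPM with 4HBP and 4828 to 5832 CPM in controls), and 0 of 6 passed without control replicate 1 or 2 and 5 of 6 without 4HBP replicate 3. The part of such shifts in cell makeup in the values of the class I genes was not tested.

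By the correlation of log2 CPM with the mean of the 10 genes over 11 libraries, after the mean of each medium was taken off, the 5 genes outside the pathway most like it were Atg10 (Pearson r = 0.978), Anapc16 (0.955), Anxa6 (0.951), H1f0 (0.938) and Rnf213 (0.937). The libraries share treatments and the high values of 1 library, and the r values are descriptions.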

How the data were processed

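The authors trimmed paired reads of stranded, poly(A)-selected libraries with cutadapt and quantified them with RSEM 1.3.0 and Bowtie2 2.2.9 (per the submitters' processing notes, with FastQC 0.11.5) on the mm10 (GRCm38) build with GENCODE vM17 genes. The strand setting of RSEM is not given in the sources used here. The deposited expected counts are RSEM's estimated counts per gene without normalization, 18.6% of those above 0 not whole (tolerance 0.001). The deposited TPM values are scaled by RSEM for length and depth. The deposited FPKM values, fragments per length and depth computed by the authors with RSEM, were not analysed here. Symbols and positions came from GENCODE vM21 (99.8% of identifiers matched).

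Expected counts were rounded, filtered by filterByExpr, normalized by TMM and tested with edgeR 4.0.16 (glmQLFit and glmQLFTest, R 4.3.3), within each medium for 4HBP and over all 11 libraries for the media and the interaction, at a Benjamini-Hochberg adjusted p under 0.05 over all genes tested. The biological coefficient of variation was 0.117 in proliferation medium, 0.0368 in differentiation medium and 0.0907 jointly. The joint fit thus uses a spread smaller than that of proliferation medium and larger than that of differentiation medium. For 4HBP it called 2668 genes in place of 1074 in proliferation medium and 0 in place of 396 in differentiation medium. The p-values of the media and interaction comparisons, which come from this joint fit, carry the same limit. Intervals are 95%. Alternatives were DESeq2 1.42.0, limma 3.58.1 on log2(CPM+1), log2(CPM+0.1) and log2(TPM+1), voom with quality weights, library totals, no filter, other sets of libraries, the replicate number as a block, and every library left out in turn. The TPM alternative was added after seeing the data. The tests were tried on simulated data first. The members and the lists were chosen with earlier results of these data known. All 10 members are named. Of the lists, genes that passed are named, and others only for values or for counts at or near 0. The 5 most alike genes had the highest correlation with the members' mean. Promoters came from RefSeq (GRCm38.p6), each printed over at most 200 bases before its start, or 30 bases where an annotated exon lies there.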

Additional observations from a re-analysis of the deposited data

How the results depend on the processing

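With 4HBP, 0 of 10 members were called in every alternative run in either medium, the thresholds of the study's methods included (in limma on log2(CPM+1), p under 0.05 with no adjustment and a log2 difference beyond 0.58). The interaction had 1 member (Tapbp) in voom with quality weights, and 0 to 1 when libraries were left out in turn, the 1 being Tapbp without 4HBP replicate 3 of proliferation medium. Between the media in controls, 5 members became 3 with library totals, 3 in limma on log2(CPM+1), 3 in limma on log2(CPM+0.1) and 3 with the replicate block, and 2 to 7 when libraries were left out, with 2 without differentiation control replicate 1 and 3 without any 1 of the proliferation controls or of differentiation 4HBP replicates 1 and 2. In limma on log2(TPM+1), the members called in controls included B2m and Tap2 as lower and Tap1 and Psmb10 as higher. Under 4HBP, 7 members became 2 (B2m and Tap2) in limma on log2(TPM+1), and 5 to 7 otherwise.

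Signs changed for values close to 0. For 4HBP in proliferation medium, Psmb9 was at -0.01 in voom and from -0.02 to 0.28 with libraries left out, and Nlrc5 from -0.26 to 0.14, above 0 without 4HBP replicate 2 (0.01) or control replicate 1 (0.14). In differentiation medium without control replicate 2, H2-K1 was at -0.05 (up to 0.09 without other libraries), B2m at -0.04, Tap1 at 0.05 (down to -0.10) and Tap2 at -0.02. There, H2-K1 was also at -0.04 summed with H2-D1 and -0.02 in TPM, Tap1 at 0.03 without 4HBP replicate 1 and Tap2 at -0.05 without 4HBP replicate 2. Between the media in controls, TPM, on which the median of all genes was higher by 0.28 than in edgeR, turned H2-K1 (0.10), H2-D1 (0.33) and Psmb10 (0.52). Under 4HBP, TPM turned Tap1 (0.18), Psmb9 (0.14) and Psmb10 (0.25), and without proliferation 4HBP replicate 3 Tap1 was at 0.03 (lowest -0.27), and without replicate 1 Tapbp at -0.01 (highest 0.16). The Psmb8 interaction was -0.21 in voom and -0.33 without proliferation 4HBP replicate 3 (highest 0.78). The Psmb10 share between the media was -0.07 on the log2 scale from expected counts, against 0.14 from TPM. The cause was not tested.

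The replicate numbers were checked as pairs, and same-numbered libraries did not deviate together (correlations of -0.103 to -0.0177 in proliferation and -0.00423 to 0.0576 in differentiation medium), so the block was kept out of the tests above. With the replicate block, 534 genes in place of 1074 were called for 4HBP in proliferation medium and 745 in place of 396 in differentiation medium. Over all genes, the calls for 4HBP ranged from 3 (limma on log2(TPM+1)) to 2668 (all 11 libraries in 1 fit) in proliferation medium and from 0 to 777 in differentiation medium, and were 107 without proliferation control replicate 1. The 3 regulators higher with 4HBP in proliferation medium became 0 in limma on log2 CPM or TPM and 5 in DESeq2, where Rfx5 was lower. At 7 to 30 counts for Psmb9, depth limits what can be seen.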
